A study of Mus musculus with 9 samples.

Results

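The axon guidance ligands and receptors of the mouse were followed through 3 stages of neural crest derivatives. Every probe set annotated to exactly 1 symbol of the ephrin (Efna, Efnb), Eph (Epha, Ephb), semaphorin (Sema), plexin (Plxn), neuropilin (Nrp1, Nrp2), Slit, Robo, netrin (Ntn) or Unc5 (Unc5a to Unc5d) families was taken, whatever its signal. This gave 148 of 45101 probe sets and 67 of 18193 genes. They are 66 ligands and receptors and Plxna4os1, an antisense RNA whose symbol meets the same rule. All 67 symbols were found in the RefSeq gene table.

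RNA came from cells cut out of mouse tissue by laser and labelled neural crest cells, and was hybridised to Affymetrix arrays with 3 arrays per stage. The first stage was the closing neural tube of E8.5 embryos (8.5 days post coitum), the second the dorsal root ganglion of E13.5 embryos (13.5 days post coitum), and the third the adrenal medulla of adults at P90 (3 months after birth). The labels give no strain, sex, genotype or treatment, and no number of animals per capture. They name the 3 arrays of a stage biological replicates, so p-values measure the spread between these captures. Tissue changes with age in this design, so stage and tissue cannot be told apart.

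Ephrins are membrane-bound ligands of the Eph receptor tyrosine kinases, which steer growing axons and migrating crest cells mostly by contact repulsion. Class 3 semaphorins are secreted and act through a neuropilin that binds the ligand and a plexin that signals, whereas membrane semaphorins mostly bind plexins directly. Slits repel axons through Robo receptors, and netrins attract or repel them through Dcc or Unc5 receptors. Repulsion by class 3 semaphorins and ephrins is known to channel trunk neural crest between the somites, and sensory axons of the dorsal root ganglion are known to turn away from Sema3a through Nrp1. The chromaffin cells of the adrenal medulla also descend from the trunk crest.

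The arrays had median signals of 38.3 to 48.2, and log2 signals of the arrays of 1 stage correlated at 0.95 to 0.985 at E8.5, 0.874 to 0.956 at E13.5 and 0.917 to 0.979 at P90 (across probe sets, which are not independent). The labelled tissues were checked against marker genes. The summed signal of 10 neural crest and early neural markers was 8025 to 10990 at E8.5, 3553 to 6175 at E13.5 and 974.0 to 1971 at P90. Wnt1, a dorsal neural tube factor, had 433, 423 and 585 at E8.5, and at most 10.7 on the other 6 arrays. The list was not uniform: Sox10, which crest cells share with glia, was higher at E13.5 (394, 481 and 543) than at E8.5 (232, 299 and 315), Snai2 overlapped between these stages, and Ets1 had its highest signal, 1353, on P90 replicate 1. Isl1, a factor of sensory and sympathetic neurons, had 149, 12.5 and 14.9 at E8.5, 5141, 3153 and 5244 at E13.5, and 88.9, 1876 and 1420 at P90. Of the other sensory neuron genes with a value on every array, Ntrk2, Ntrk3 and Prph overlapped between E13.5 and P90, and Ntrk3 also with E8.5. For 10 of the 11 annotated sensory neuron genes at least 1 probe set lacked a value on all 3 E13.5 arrays, so most of that list could not be read there. Dbh, which makes noradrenaline, had 305, 2172 and 2072 at P90, and for 5 of 7 adrenal cortex genes at least 1 probe set lacked a value on every P90 array.

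A pair of arrays stood apart. P90 replicate 1 had a summed signal of 12110 over the 5 readable chromaffin markers, against 23230 and 22540 on the other P90 arrays. Its endothelial sum over 8 of 10 markers was 5187, against 1445 and 1481, and its mesenchymal sum over 6 of 9 markers was 4470, against 1624 and 910. Kdr alone gave 2728 of the endothelial sum, against 123 and 180 on the other P90 arrays. Cdh5, Cldn5, Plvap and Esam were also highest at P90 on replicate 1, but Tie1, Pecam1 and Egfl7 were not. E13.5 replicate 2 had the widest gap on any array between the Actb control probe sets for both ends of the transcript (3′ over 5′ signal of 7.0 on the log2 scale, against 0.85 and 2.87 on the other E13.5 arrays). Calls that turn on either array are given with and without it.

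Of the 66 ligands and receptors, 54 passed the filter on low signals and were tested with the brightest passing probe set of each gene. The others were Epha1, Epha2, Epha6, Ephb4, Ntn3, Ntn5, Robo3, Sema6b, Sema7a, Slit3, Unc5a and Unc5d, as was Plxna4os1. A gene was called where its adjusted p from limma (Benjamini-Hochberg over 13180 genes) was under 0.05. In all, 24 members were called in at least 1 comparison, and the F-test for any difference between stages called 21, or 38.9%, against 27% of all genes. In these bulk captures, fewer cells of a type and less RNA per cell cannot be told apart. The 3 comparisons share arrays, so they are not independent of each other.

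At E13.5 against E8.5, 12 of the 54 members were called, or 22.2%, against a background of 17% of all genes. The 9 that rose were the semaphorins Sema4a, Sema4d, Sema4g, Sema6a and Sema6d, the netrin Ntn4, and the receptors Nrp1, Plxnb3 and Epha3. The 3 that fell were all ligands: Ntn1, Sema3a and Efnb3. Risers made up 16.7% of the members against 9.56% of all genes, and fallers 5.56% against 7.44%. The median change of the members was 0.42 on the log2 scale, against 0.02 over all genes. The arrays of the 2 stages did not overlap for 23 members, or 42.6%, against 36.3% of all genes. No called change reversed when any 1 array was left out, but the count was 7 without E8.5 replicate 2, E8.5 replicate 3 or E13.5 replicate 3, where 10.2%, 11.4% and 11.4% of all genes were called.

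At P90 against E13.5, 9 members were called and all 9 fell: the ligands Sema3c, Sema6a, Sema6d, Slit1, Efnb2 and Efna5, and the receptors Epha3, Plxna2 and Plxna3. That is 16.7% of the members against 9.64% of all genes, and against 6.09% for genes that fell. By limma 0 members rose, against 3.55% of all genes. The members' median change was −0.44, against −0.05 over all genes. Signals at P90 lay below all E13.5 signals for 19 members and above them for 1, Plxna4, which was not called; over all genes 14.1% lay below and 9.54% above. Without E13.5 replicate 3 the count of called members was 5, and 5.06% of all genes were called. Without P90 replicate 1 it was again 9, of which 1 rose and 8 fell, and 10.4% of all genes were called.

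At P90 against E8.5, 17 members were called, or 31.5%, against 24.1% of all genes. The 6 that rose were Ntn4, Sema4a, Sema5a, Nrp1, Epha5 and Ephb6. The 11 that fell were the ligands Ntn1, Slit1, Sema3a, Sema3c, Efna2, Efna5, Efnb2 and Efnb3 and the receptors Epha7, Plxna2 and Robo2. Risers were 11.1% of the members and 11.1% of all genes, and fallers 20.4% of the members and 13% of all genes. Of the 8 tested ephrins, 4 fell and the other 4 were not called. The arrays of the 2 stages did not overlap for 26 members, or 48.1%, against 44.6% of all genes. The count was 11, 10 and 11 without E8.5 replicate 2, E8.5 replicate 3 and P90 replicate 3, where 15.5%, 17.2% and 18.2% of all genes were called.

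**Figure D1:**
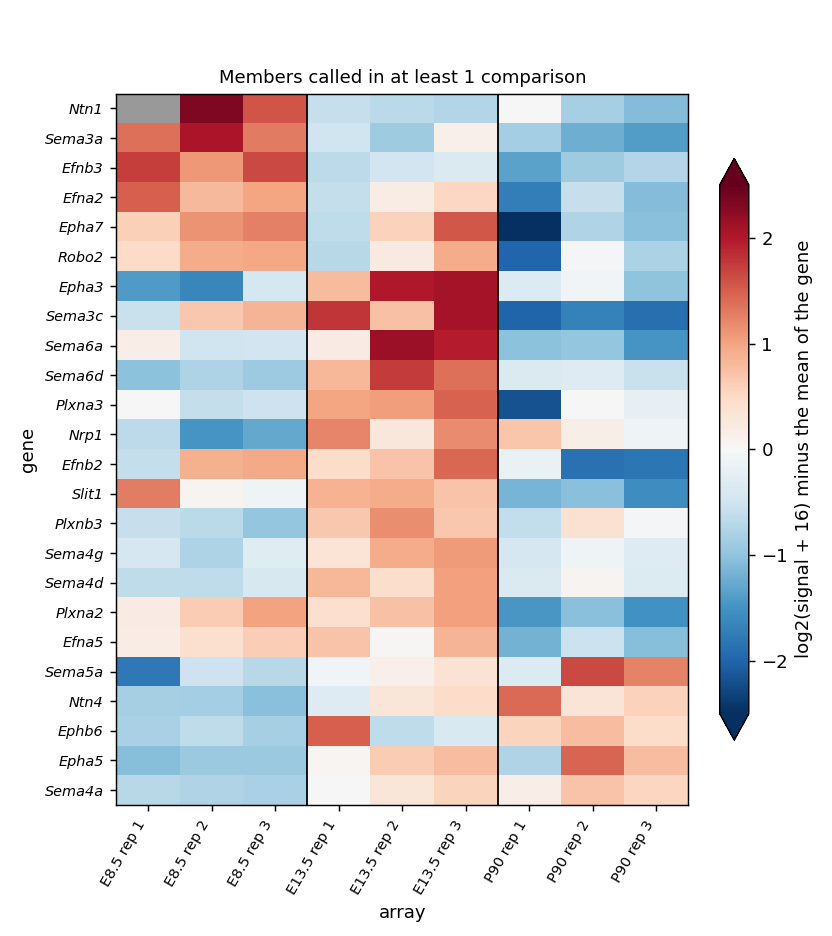
Signals of the 24 members called in at least 1 comparison (rows), on the 9 arrays in time order (columns), coloured by their distance from the gene's own mean on the log2 scale. Genes are ordered by the stage of their highest mean, and the grey cell is the empty value of Ntn1 on E8.5 replicate 1.

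**Figure D2:**
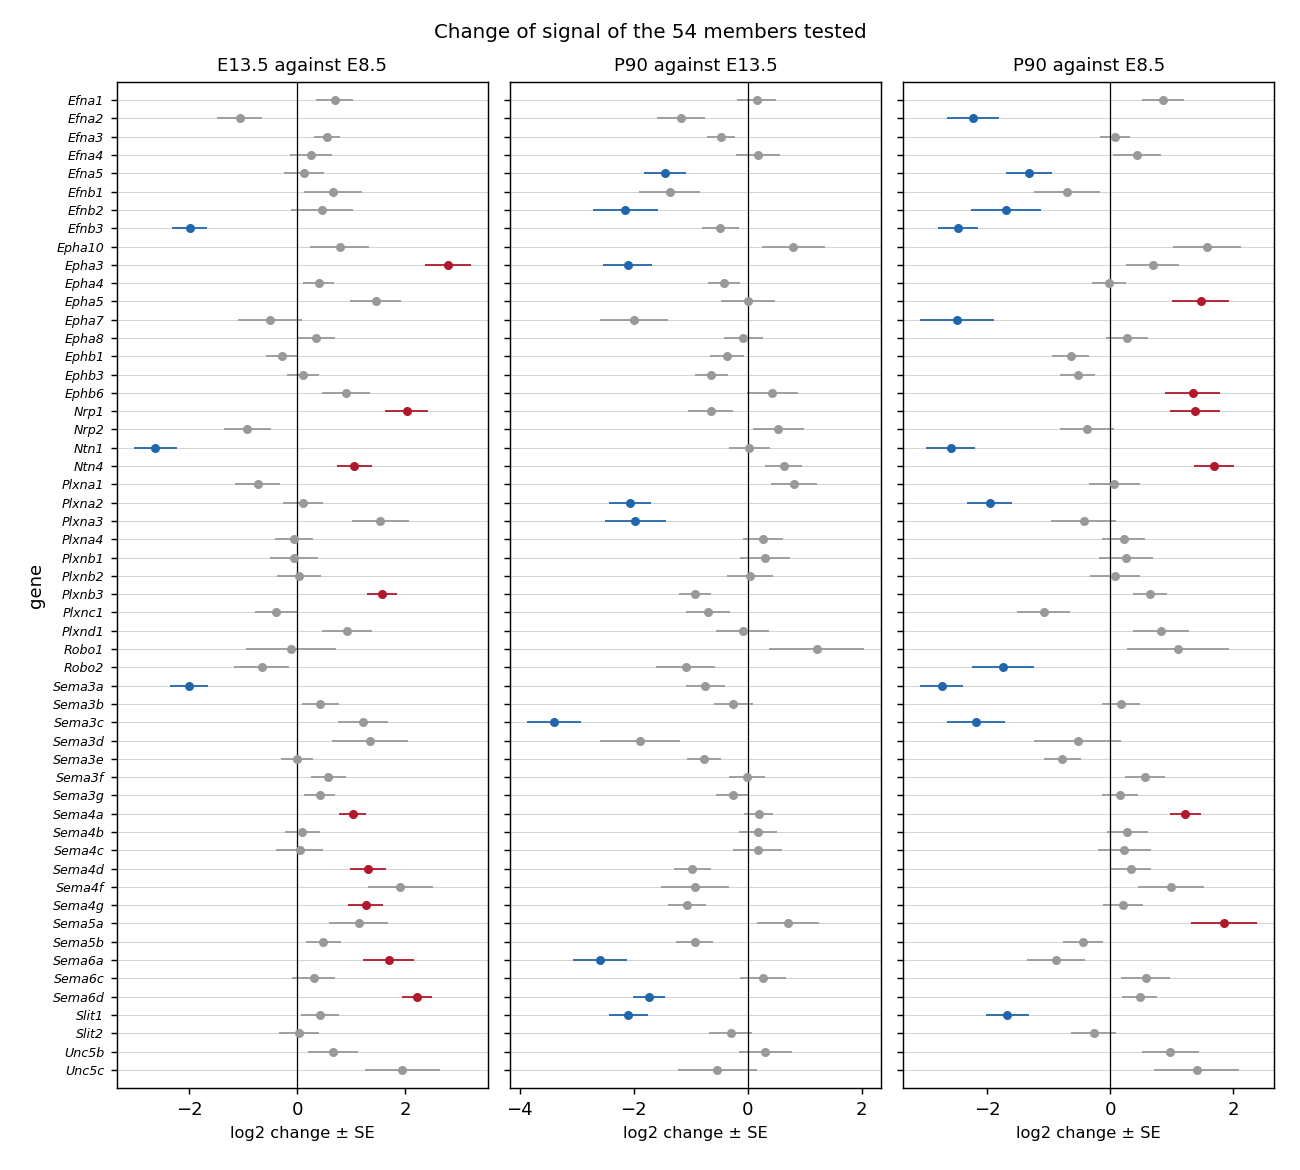
Log2 changes of the 54 tested members in the 3 comparisons, with bars of 1 standard error; red genes rose, blue genes fell and grey genes were not called. Called members lie on both sides of 0 in both comparisons with E8.5, and only on the negative side at P90 against E13.5.

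Among the secreted ligands, Ntn1, the netrin of the floor plate that attracts commissural axons, was a ligand of the earliest stage. Its signals were 670 and 390 on 2 E8.5 arrays, the third being empty, then 75.3, 69.3 and 65.8 at E13.5 and 121, 60.7 and 48.7 at P90. The E8.5 values lay above all 6 later ones, which overlapped each other. The change was −2.62 ± 0.40 at E13.5 (SE, adjusted p = 0.0015) and −2.59 ± 0.40 at P90 (adjusted p = 0.00113), both against E8.5. Ntn4, a netrin of basement membranes, ran the other way, with 15.4, 15.1 and 11.1 at E8.5, 28.7, 53 and 61.1 at E13.5, and 133, 54.1 and 68.1 at P90. It rose by 1.06 ± 0.32 at E13.5 (adjusted p = 0.041) and by 1.69 ± 0.32 at P90 (adjusted p = 0.00277) against E8.5. All its E8.5 signals were under the filter signal of 31.5, and leaving out E13.5 replicate 2 ended its E13.5 call (adjusted p = 0.0853). Leaving out any 1 of the E8.5 arrays, E13.5 replicate 3 or P90 replicate 3 ended it too, with an adjusted p of up to 0.153.

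Slit1, a secreted repellent read by Robo receptors, had signals of 158, 59.3 and 50.4 at E8.5, 115, 120 and 102 at E13.5, and 15.9, 18.6 and 8.57 at P90. All 3 P90 values lay below the other 6. Slit1 fell by 2.09 ± 0.35 at P90 against E13.5 (adjusted p = 0.00295) and fell by 1.67 ± 0.35 against E8.5 (adjusted p = 0.005). A further passing probe set of Slit1 was lower at P90 in both comparisons, by −1.42 against E13.5, where it was called too with an adjusted p of 0.0453 over all probe sets, and by −1.04 against E8.5, where it was not. Slit2 had 343, 243 and 247 at E8.5, 234, 218 and 433 at E13.5, and 167, 279 and 246 at P90, all overlapping, and was called in no comparison.

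The class 3 semaphorins differed among themselves. Sema3a, the repellent of sensory axons, had 368, 593 and 347 at E8.5, 88.6, 63.2 and 145 at E13.5, and 65.4, 46.7 and 39.5 at P90. The E8.5 arrays were clear of both later stages. The change was −2.00 ± 0.35 at E13.5 (adjusted p = 0.0025) and −2.74 ± 0.35 at P90 (adjusted p = 0.00023) against E8.5. Sema3c, a cue best known for guiding crest cells into the outflow tract of the heart, had 204, 499 and 564 at E8.5, 1102, 524 and 1357 at E13.5, and 64.4, 84.4 and 70.9 at P90. Its lowest stage was therefore P90, and its E8.5 and E13.5 arrays overlapped. The change at E13.5 against E8.5 was 1.22 and not called (adjusted p = 0.103); without E13.5 replicate 2 it was 1.62 (adjusted p = 0.0273). At P90 it fell by 3.40 ± 0.47 against E13.5 (adjusted p = 0.000941), the largest change of any tested member in any comparison, and fell by 2.18 ± 0.47 against E8.5 (adjusted p = 0.0058). Another passing Sema3c probe set gave changes of 0.25 and 0.13 in those comparisons and was not called. Sema3d had 118, 155 and 524 at E13.5 and 11.1, 156 and 143 at E8.5, and was not called in any comparison. Sema3b was not called on its brightest probe set. Another passing one had 71.1, 68.1 and 34.8 at E13.5, and 1.81 to 15.9 at E8.5 and P90. That probe set passed the filter only through E13.5, so no fold or p is given for it. Sema3f, the ligand that acts through Nrp2, had 2686, 2632 and 2782 at P90 and 1754, 1381 and 2462 at E8.5. These come from a probe set of the kind that can bind related transcripts, and the gene's other probe sets did not pass the filter. The arrays at P90 and E8.5 did not overlap, but the change of 0.57 ± 0.32 was not called (adjusted p = 0.228).

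Of the receptors of class 3 semaphorins, Nrp1, which binds Sema3a and also VEGF in endothelium, had 987, 554 and 638 at E8.5, 3653, 1912 and 3568 at E13.5, and 2526, 1740 and 1446 at P90. All 6 later values exceeded the 3 early ones. It rose by 2.03 ± 0.40 at E13.5 (adjusted p = 0.00475) and by 1.38 ± 0.40 at P90 (adjusted p = 0.027) against E8.5, and its 3 further passing probe sets had the same direction in both. Without P90 replicate 1, the array with the high endothelial sum, the P90 change was 1.15 with an adjusted p of 0.0625. The P90 call was also lost without E8.5 replicate 2, E8.5 replicate 3 or P90 replicate 2, with an adjusted p of up to 0.117. The part of endothelium in the Nrp1 signal was not tested. Nrp2 had 366, 289 and 286 at E13.5, against 759, 594 and 492 at E8.5; its arrays did not overlap, but the change of −0.92 ± 0.44 was not called (adjusted p = 0.187).

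Plxna2, a signalling partner of the neuropilins, was lower in the adult than at both embryonic stages, whose arrays overlapped. It had 514, 693 and 901 at E8.5, 596, 744 and 918 at E13.5, and 150, 206 and 144 at P90. It fell by 2.07 ± 0.37 at P90 against E13.5 (adjusted p = 0.00404) and fell by 1.96 ± 0.37 against E8.5 (adjusted p = 0.00262), and its 3 further passing probe sets were lower in both. Plxna3, which also pairs with neuropilins, had 87.9, 449 and 390 at P90, against 919, 954 and 1295 at E13.5. It fell by 1.97 ± 0.53 (adjusted p = 0.0378), but without P90 replicate 1, its lowest array, the change was −1.29 and the adjusted p 0.0608. Leaving out any 1 of the E8.5 arrays or of E13.5 replicates 1 and 3 ended the call as well, with an adjusted p of up to 0.152. The other passing Plxna3 probe set gave −0.21 at P90 against E13.5 and was not called (adjusted p = 0.782 over all probe sets). Plxna4, the plexin that transmits Sema3a signals in sensory neurons, had 709, 686 and 1124 at E8.5, 646, 846 and 894 at E13.5, and 1027, 929 and 916 at P90. It was called in no comparison. Plxnc1 was not called on its brightest probe set. Another passing one was called lower at P90, by −2.75 against E13.5 (adjusted p = 0.00925 over all probe sets) and by −1.80 against E8.5 (adjusted p = 0.0324). The remaining passing Plxnc1 probe sets were not called.

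Promoter sequence is shown for both class 3 semaphorins that were called on their brightest probe set. It is also shown for the 2 receptor genes whose 4 passing probe sets all had one direction. Each window holds 250 bases before and 50 after the RefSeq start (GRCm38.p6, plus strand), written 5′ to 3′, and capitals mark GC boxes (GGGCGG, or CCGCCC on the other strand). The 4 windows are chr5:13396534-13396833 for Sema3a, chr5:17574566-17574865 for Sema3c, chr8:128358823-128359122 for Nrp1 and chr1:194619579-194619878 for Plxna2.
Sema3a: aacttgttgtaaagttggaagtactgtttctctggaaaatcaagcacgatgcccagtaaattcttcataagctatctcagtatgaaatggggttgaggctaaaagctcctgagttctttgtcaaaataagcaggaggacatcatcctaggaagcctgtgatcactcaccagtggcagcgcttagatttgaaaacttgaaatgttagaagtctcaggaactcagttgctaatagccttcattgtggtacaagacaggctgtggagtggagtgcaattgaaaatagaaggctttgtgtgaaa
Sema3c: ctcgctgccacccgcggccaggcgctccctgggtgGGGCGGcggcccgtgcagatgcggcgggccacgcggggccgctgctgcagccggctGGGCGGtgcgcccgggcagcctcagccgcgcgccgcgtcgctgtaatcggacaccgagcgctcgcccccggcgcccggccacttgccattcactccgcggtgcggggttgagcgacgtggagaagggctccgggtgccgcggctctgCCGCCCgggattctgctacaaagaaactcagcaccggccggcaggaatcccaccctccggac
Nrp1: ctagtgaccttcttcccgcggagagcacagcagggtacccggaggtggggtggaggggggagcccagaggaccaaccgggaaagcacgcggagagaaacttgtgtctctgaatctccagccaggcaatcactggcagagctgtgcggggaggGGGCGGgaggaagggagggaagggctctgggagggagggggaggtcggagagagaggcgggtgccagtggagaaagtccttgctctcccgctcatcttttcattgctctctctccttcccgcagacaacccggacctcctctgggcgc
Plxna2: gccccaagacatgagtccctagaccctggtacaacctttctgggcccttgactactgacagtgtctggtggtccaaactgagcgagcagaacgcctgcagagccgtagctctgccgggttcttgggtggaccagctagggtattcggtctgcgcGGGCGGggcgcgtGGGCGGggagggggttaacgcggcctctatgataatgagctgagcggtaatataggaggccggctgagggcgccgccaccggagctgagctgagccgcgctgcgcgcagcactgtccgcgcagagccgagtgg
The Sema3a window had 41.3% G and C, 2 CpG and 0 GC boxes, and the Sema3c window 75.7%, 42 and 3. Nrp1 had 1 GC box and Plxna2 had 2. Windows were listed for 57 members (73 windows), of which 72.6% held a GC box, against 35.7% of 32851 windows of all genes. Their median G and C content was 64.3%, against 52.7%. The E box CANNTG, which reads the same on both strands, was in 49.3% of member windows against 72.3% of all, CCAAT on either strand in 26.0% against 37.4%, and TATAAA on either strand in 2.74% against 13.6%. These are matches of letters in a window, not measured binding sites.

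Of 11 tested membrane semaphorins (classes 4 to 6), 5 rose at E13.5 against E8.5, or 45.5%, beside 9.56% of all genes. Sema6d, a ligand of Plxna1, had 21.7, 29.3 and 25.2 at E8.5, 121, 242 and 183 at E13.5, and 43.7, 45.6 and 36.2 at P90. Its 3 stages did not overlap. It rose by 2.22 ± 0.28 at E13.5 against E8.5 (adjusted p = 0.000329) and fell by 1.73 ± 0.28 at P90 against E13.5 (adjusted p = 0.00224). A further Sema6d probe set, with 123, 212 and 269 at E8.5 and 347, 205 and 136 at P90, lacked a value on every E13.5 array and was not tested. Sema6a, a ligand of Plxna2 and Plxna4, had 105, 60.3 and 61.1 at E8.5, 108, 458 and 404 at E13.5, and 36.9, 39.3 and 23 at P90. It rose by 1.70 ± 0.47 at E13.5 against E8.5 (adjusted p = 0.0268) and fell by 2.59 ± 0.47 at P90 against E13.5 (adjusted p = 0.00446). Its lowest E13.5 array barely cleared the E8.5 range, and another passing probe set of Sema6a gave changes of −0.10 and 0.09. The call against E8.5 was lost without E8.5 replicate 2, E8.5 replicate 3, E13.5 replicate 2 or E13.5 replicate 3, with an adjusted p of up to 0.112.

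Sema4d, the main ligand of Plxnb1, had 585, 437 and 665 at E13.5, against 201, 201 and 239 at E8.5, a rise of 1.32 ± 0.33 (adjusted p = 0.0178). Sema4g, a transmembrane semaphorin, had 324, 489 and 545 at E13.5, against 185, 140 and 202 at E8.5, a rise of 1.27 ± 0.33 (adjusted p = 0.022). Neither pair of stages overlapped, but both calls were lost without E8.5 replicate 2, E8.5 replicate 3 or E13.5 replicate 3, and that of Sema4d also without E8.5 replicate 1, with adjusted p-values of up to 0.0849 for Sema4d and 0.118 for Sema4g. Sema4a, known from immune cells and the retina, had 28.8, 26.9 and 25.2 at E8.5, 55.5, 72.9 and 90.2 at E13.5, and 65.5, 102 and 88.8 at P90, on a probe set of the kind that can bind related transcripts. It rose by 1.03 ± 0.25 at E13.5 (adjusted p = 0.0162) and by 1.22 ± 0.25 at P90 (adjusted p = 0.00488) against E8.5. The gene's other passing probe set gave 0.24 and −0.04, so the direction at P90 rested on the choice of probe set. The E13.5 call of Sema4a was lost without the same 3 arrays as that of Sema4g, with an adjusted p of up to 0.075. Sema5a, which can attract or repel axons, had 116, 303 and 267 at E8.5, 421, 483 and 568 at E13.5, and 343, 1410 and 1064 at P90. It rose at P90 against E8.5 by 1.85 ± 0.54 (adjusted p = 0.027), with its lowest P90 value on replicate 1. That call was lost without E8.5 replicate 1, E8.5 replicate 3, P90 replicate 2 or P90 replicate 3, with an adjusted p of up to 0.117.

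The brightest members of classes 4 and 6 were called in no comparison. Sema4c, a Plxnb2 ligand, had 509, 362 and 838 at E8.5, 364, 814 and 576 at E13.5, and 544, 682 and 677 at P90. Sema6c had 785, 571 and 1060 at E8.5, 617, 1189 and 1245 at E13.5, and 951, 1329 and 1272 at P90. The arrays of all 3 stages overlapped for both, and their largest changes were 0.23 ± 0.43 (adjusted p = 0.75) and 0.58 ± 0.40 (adjusted p = 0.335), at P90 against E8.5.

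**Figure D3:**
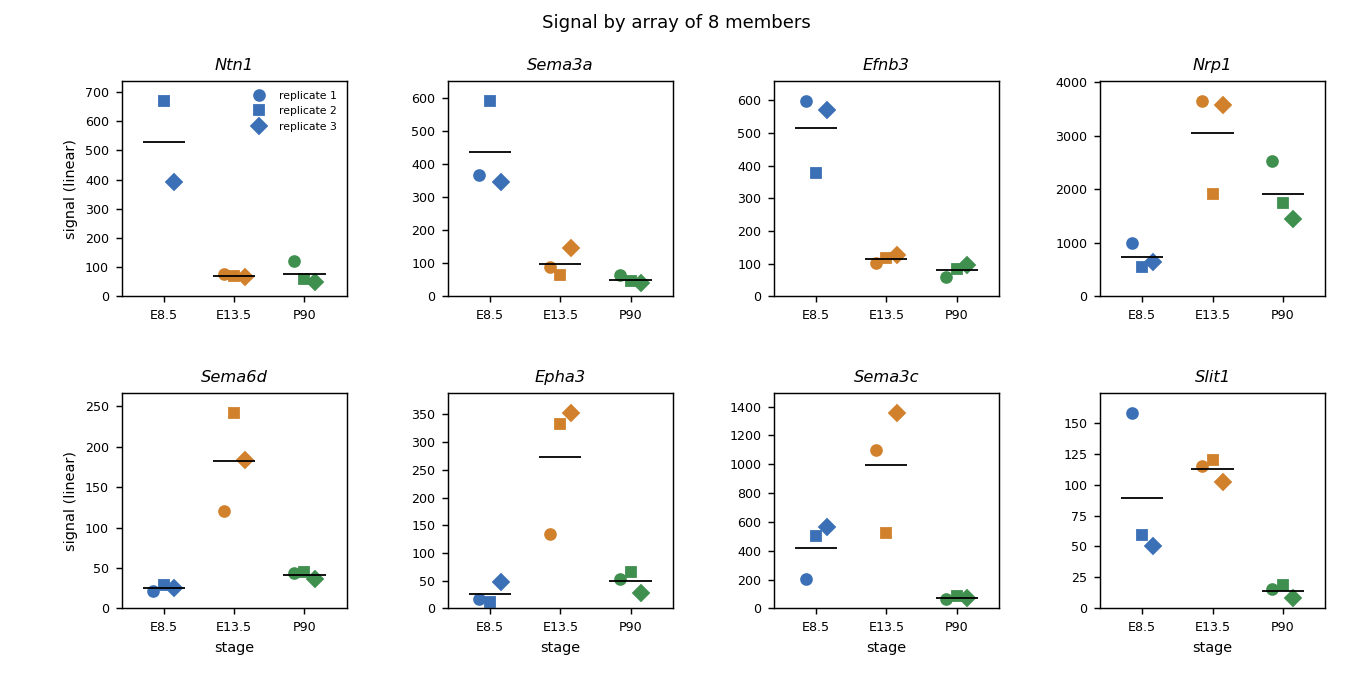
Signals of 8 members on the 9 arrays by stage (linear axes from 0; circles, squares and diamonds are replicates 1, 2 and 3, and lines are means). Ntn1, Sema3a and Efnb3 are highest at E8.5, Nrp1, Sema6d and Epha3 are highest at E13.5, and Sema3c and Slit1 are lowest at P90.

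Every ephrin call was a fall. Efnb3, an ephrin-B of the spinal cord midline that stops corticospinal axons from crossing, had 599, 377 and 571 at E8.5, 102, 117 and 128 at E13.5, and 57.7, 84.8 and 95.4 at P90. The 3 stages did not overlap. The change was −1.99 ± 0.32 at E13.5 (adjusted p = 0.00141) and −2.47 ± 0.32 at P90 (adjusted p = 0.000225) against E8.5. Efna2, an ephrin-A of topographic maps, had 803, 492 and 556 at E8.5, 176, 314 and 401 at E13.5, and 71.1, 179 and 120 at P90. It fell by 2.23 ± 0.42 at P90 against E8.5 (adjusted p = 0.00289). The other passing Efna2 probe set gave −0.65 there and was not called (adjusted p = 0.0873 over all probe sets). Efna5, which shares that mapping role, had 1135, 1314 and 1524 at E8.5, 1633, 1018 and 1798 at E13.5, and 432, 685 and 464 at P90. At P90 it fell by 1.45 ± 0.37 against E13.5 (adjusted p = 0.0287) and fell by 1.32 ± 0.37 against E8.5 (adjusted p = 0.0225). Without P90 replicate 1 the change against E13.5 was −1.33 with an adjusted p of 0.0586. The call against E13.5 was also lost without E8.5 replicate 2, E8.5 replicate 3, E13.5 replicate 1, E13.5 replicate 3 or P90 replicate 3, with an adjusted p of up to 0.133. The call against E8.5 was lost without E8.5 replicate 2, E8.5 replicate 3 or P90 replicate 3, with an adjusted p of up to 0.0958.

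Efnb2, the ephrin of arterial endothelium and of the caudal somite, had 219, 647 and 670 at E8.5, 476, 570 and 949 at E13.5, and 303, 81.5 and 85.9 at P90. It fell by 2.15 ± 0.57 at P90 against E13.5 (adjusted p = 0.0339) and fell by 1.69 ± 0.57 against E8.5 (adjusted p = 0.0499), where P90 replicate 1 overlapped the E8.5 arrays. Without that array, which had the high endothelial sum, the changes were −2.71 (adjusted p = 0.00592) and −2.25 (adjusted p = 0.00792). Both calls were lost without E8.5 replicate 2, E13.5 replicate 3, P90 replicate 2 or P90 replicate 3, and the one against E8.5 also without E8.5 replicate 3, with an adjusted p of up to 0.178. Efnb1, an X-linked ephrin-B, had 1348, 362 and 267 at P90, against 1437, 1077 and 1570 at E13.5. It was not called over all arrays, with a change of −1.37 ± 0.54 (adjusted p = 0.159). Without P90 replicate 1 the change was −2.06 with an adjusted p of 0.00602, and that against E8.5 was −1.39 with an adjusted p of 0.0228, in place of −0.70 and 0.384 over all arrays.

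Of 9 tested Eph receptors (6 of class A and 3 of class B), 1 was called at E13.5 against E8.5, 1 at P90 against E13.5 and 3 at P90 against E8.5, or 11.1%, 11.1% and 33.3%, beside 17%, 9.64% and 24.1% of all genes. Epha3, a receptor of ephrin-A ligands, had 16.6, 12.2 and 48 at E8.5, 135, 332 and 353 at E13.5, and 52.9, 66.3 and 27.3 at P90. The E13.5 arrays exceeded all others. It rose by 2.79 ± 0.43 at E13.5 against E8.5 (adjusted p = 0.00119), the largest rise of any tested member, and fell by 2.10 ± 0.43 at P90 against E13.5 (adjusted p = 0.00913), a fall whose adjusted p was 0.0569 without E13.5 replicate 3. A further Epha3 probe set lacked a value on every E13.5 array and was not tested. Epha7 had 389, 566 and 621 at E8.5, 156, 381 and 765 at E13.5, and 25.8, 142 and 113 at P90. It fell by 2.49 ± 0.60 at P90 against E8.5 (adjusted p = 0.0112), and 2 further passing probe sets were lower there too.

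Epha5, a partner of Efna2 and Efna5, had 33.1, 210 and 124 at P90, against 23.5, 27.2 and 27.2 at E8.5, a rise of 1.47 ± 0.47 (adjusted p = 0.0399). P90 replicate 1 lay closest to the E8.5 values, and without it the rise was 2.08 (adjusted p = 0.000765). Leaving out any 1 of the E8.5 arrays, of P90 replicates 2 and 3, or E13.5 replicate 3 ended the call, with an adjusted p of up to 0.155. Another passing Epha5 probe set was called higher at P90 against E8.5 over all arrays (1.62, adjusted p = 0.0191 over all probe sets). The remaining passing one gave 0.59 and was not called (adjusted p = 0.173). Ephb6, an Eph receptor without kinase activity, had 46.2, 56.8 and 42.5 at P90, against 8.4, 11.5 and 8.09 at E8.5. It was called as risen. Its E13.5 arrays read 104, 11.3 and 16.7, so 1 of them was far above the other 2. Outside P90 only that array exceeded the filter signal, so Ephb6 passed the filter only through P90, and no fold or p is given. Leaving out any 1 of the E8.5 or P90 arrays, or E13.5 replicate 3, ended the call. Epha10, also without kinase activity, had 8.66, 121 and 109 at P90, against 14.7, 13.8 and 1 at E8.5. Outside P90 only E13.5 replicate 2 (36.5) exceeded the filter signal. Epha10 thus passed the filter only through P90 as well, and no fold or p is given for it. It was not called over all arrays. Without P90 replicate 1 it was called higher at P90 against E8.5 and against E13.5.

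Epha4, a receptor of both ephrin classes, had 49.1, 55.1 and 53.5 at E8.5, 69.6, 51.3 and 113 at E13.5, and 61.9, 42.6 and 52 at P90. Ephb1 had 118, 104 and 155 at E8.5, 102, 86.7 and 110 at E13.5, and 106, 68.4 and 54.1 at P90. On these probe sets the arrays of each pair of stages overlapped, and neither gene was called in any comparison. The other 2 passing Epha4 probe sets were both called lower at P90 against E8.5, by −1.31 (adjusted p = 0.0485 over all probe sets) and −1.65 (adjusted p = 0.00581), so the probe sets of Epha4 disagree. The one with the larger change had 13.4, 29.7 and 17.8 at P90, against 71.2, 79.4 and 153 at E8.5, which did not overlap.

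Of the remaining receptors, Plxnb3, a receptor for Sema5a, had 50.1, 77.5 and 50.1 at E13.5, against 11.9, 10.1 and 5.4 at E8.5. It was called as risen, on a probe set that can bind several transcripts. Outside E13.5 only P90 replicate 2 (38.3) exceeded the filter signal. Plxnb3 thus passed the filter only through the stage where it is high, and no fold or p is given for this rise. Robo2, a Slit receptor, had 20.3, 123 and 66.8 at P90, against 185, 258 and 267 at E8.5. It fell by 1.74 ± 0.51 (adjusted p = 0.0288), but without P90 replicate 1 the change was −1.22 and the adjusted p 0.0762. Leaving out any 1 of the E8.5 arrays or P90 replicate 3 ended the call as well, with an adjusted p of up to 0.0911.

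Robo1, the other Slit receptor tested, had 181, 404 and 453 at E8.5, 364, 112 and 621 at E13.5, and 2958, 401 and 294 at P90. The single high array was P90 replicate 1, and the gene was not called in any comparison. Its change at P90 against E13.5 was 1.21 ± 0.83 (adjusted p = 0.461), and 0.20 without that array. Unc5c, a repelling netrin receptor, had 165, 152 and 233 at E8.5, 365, 790 and 1395 at E13.5, and 144, 1153 and 752 at P90. Its E13.5 arrays lay above its E8.5 arrays, but the change of 1.95 ± 0.69 was not called (adjusted p = 0.0795). Without P90 replicate 1, which changes the spread estimated in the fit, it was called with an adjusted p of 0.0129, and P90 against E8.5 then gave 2.27 (adjusted p = 0.00863).

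**Figure D4:**
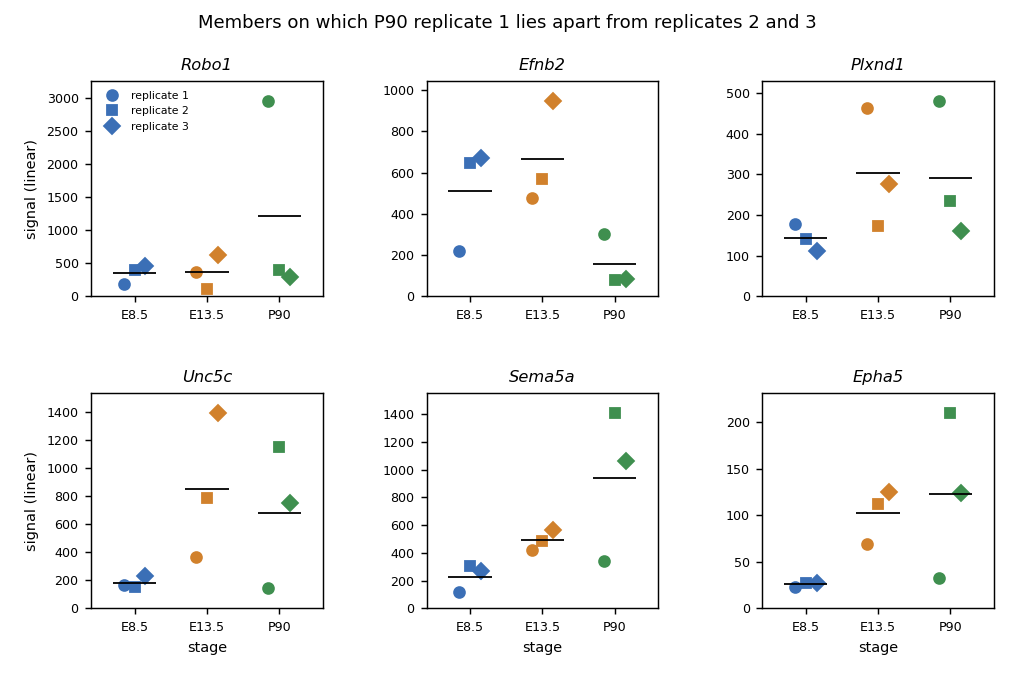
Signals of 6 members whose P90 values depend on replicate 1 (linear axes from 0; circles, squares and diamonds are replicates 1, 2 and 3, and lines are means). For Robo1, Efnb2 and Plxnd1 the circle is the highest P90 point, and for Unc5c, Sema5a and Epha5 it is the lowest.

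Several further calls, not made over all arrays, were made without P90 replicate 1 or without E13.5 replicate 2. Some were not particular to these arrays. At E13.5 against E8.5, Epha5 was also called without E13.5 replicate 1 or P90 replicate 2, and Sema4f without E13.5 replicate 1. Without P90 replicate 1, whose removal changes the spread estimated in the fit, Epha5 (1.46, adjusted p = 0.00428), Plxna3 (1.54, adjusted p = 0.0085) and Sema4f (1.91, adjusted p = 0.0292) were called higher at E13.5 against E8.5, with the same changes as over all arrays. The other passing Plxna3 probe set gave 0.04 there over all arrays (adjusted p = 0.957 over all probe sets). Another passing Epha5 probe set was called there with every array kept (1.60, adjusted p = 0.0258 over all probe sets). The remaining passing Epha5 probe set gave 0.17 and was not called (adjusted p = 0.764). Without P90 replicate 1, Efna1, a short-range ephrin-A, was called higher at P90 against E8.5 (1.12, adjusted p = 0.0351). Plxnb3 was called higher there too. Of its P90 and E8.5 signals only that of P90 replicate 2 (38.3) exceeded the filter signal, so no fold or p is given. Without E13.5 replicate 2, Efna1 (1.05, adjusted p = 0.0372), Unc5b (1.24, adjusted p = 0.0292) and Sema4f (3.09, adjusted p = 0.00183) were called higher at E13.5 against E8.5. In that fit Sema4d (−1.14, adjusted p = 0.0455) and Sema4f (−2.10, adjusted p = 0.018) were called lower at P90 against E13.5, and Efna1 (0.86, adjusted p = 0.0381) and Unc5b (0.98, adjusted p = 0.0347) higher at P90 against E8.5. Sema4f has an empty cell on E13.5 replicate 1, so its values there rest on 1 E13.5 array. A further Sema4f probe set, with 58.5, 23 and 41.2 at E8.5 and 18.5, 318 and 301 at P90, lacked a value on every E13.5 array and was not tested.

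Markers of other cell types moved with stage as well. The epithelial sum over 5 of 6 markers was 957.2 to 2913 at E8.5, 99.0 to 241.8 at E13.5 and 208.4 to 325.6 at P90, so it was highest where Ntn1, Sema3a and Efnb3 were highest. The list was not uniform. Cdh1, left out for an empty cell, had 26.5, 414 and 447 at E8.5 and 212 and 546 on the readable E13.5 arrays. Cldn7 overlapped between these stages as well. The glial sum over 5 of 8 markers was 592.6 to 980.9 at E8.5, 2159 to 5641 at E13.5 and 269.7 to 1093 at P90, and the mesenchymal sum was 1040 to 2071, 3569 to 12300 and 910.0 to 4470 at the same stages. Both were highest at E13.5, as were Sema6a, Sema6d, Nrp1 and Epha3, except that P90 replicate 1 entered the mesenchymal E13.5 range. Neither list was uniform. Col1a2 and Dcn gave 7477 and 4069 of the mesenchymal sum of E13.5 replicate 1. Pdgfra and Tbx18 overlapped between E8.5 and E13.5, and Twist1 was highest on E8.5 replicates 2 and 3 (294 and 289). Among the glial genes Mbp, S100b and Sox10 were highest at E13.5, but Erbb3 and Gfap overlapped between E13.5 and P90. The part of these cell types in the members' changes was not tested.

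Genes that work beside these ligands and receptors were counted from 3 lists of co-receptors and adhesion partners, cytoplasmic effectors, and shedding and modifying enzymes. Of 31 tested co-receptors, adhesion partners and other cues, 14 rose and 3 fell at E13.5 against E8.5, 6 fell and 25 were not called at P90 against E13.5, and 7 rose and 3 fell at P90 against E8.5. These are 54.8%, 19.4% and 32.3% of the list, beside 17%, 9.64% and 24.1% of all genes. Cntn2, an axonal adhesion molecule, had 366, 1289 and 1789 at E13.5, and 8.77 to 12.2 on the other 6 arrays. Those 6 lie under the filter signal, so Cntn2 passed the filter only through the stage where it is high, and no fold or p is given for it. Cntn4, of the same family, had 536, 93.1 and 503 at E13.5, and outside that stage only P90 replicate 3 (33.5) exceeded the filter signal. No fold or p is given for it either. The counts and shares of this list include Cntn2 and Cntn4. Cntn1, also of that family, rose by 5.31 ± 0.83 at E13.5 against E8.5 (adjusted p = 0.00124). L1cam, which binds Nrp1 in the Sema3a receptor, rose by 4.06 ± 0.61 at E13.5 against E8.5 (adjusted p = 0.000942). Draxin, a secreted repellent, fell by 2.87 ± 0.41 at P90 against E8.5 (adjusted p = 0.000696), where the adhesion molecules Alcam and Chl1 rose by 3.34 ± 0.57 (adjusted p = 0.00147) and 3.32 ± 0.68 (adjusted p = 0.00437).

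Of 45 tested effectors, 5 rose and 1 fell at E13.5 against E8.5, 1 rose and 7 fell at P90 against E13.5, and 2 rose and 4 fell at P90 against E8.5. These are 13.3%, 17.8% and 13.3% of the list, beside the same 17%, 9.64% and 24.1%. Dpysl3, a member of the collapsin response mediator family that acts downstream of semaphorins, averaged 4890 at E13.5 and 190 at E8.5 (4.61 ± 0.57, adjusted p = 0.000476) and fell by 4.20 ± 0.57 at P90 against E13.5 (adjusted p = 0.00124). Dpysl4 fell by 4.79 ± 0.55 at P90 against E13.5 (adjusted p = 0.000453). Both have an empty cell at E13.5, so each E13.5 mean rests on 2 arrays. Ngef, an Eph-linked exchange factor, had 63.4, 51.4 and 69.2 at E8.5 and 3.02 to 8.0 on the other 6 arrays. It passed the filter only through E8.5, so no fold or p is given for it. The counts include Ngef, as the 1 fall at E13.5 and 1 of the 4 falls at P90, both against E8.5. Of 14 tested enzymes, 2 rose at E13.5 against E8.5, Adam10, which sheds ephrins, and Mmp14, 1 fell at P90 against E13.5, Adam10, and 1 rose, Furin, and 1 fell, Hs2st1, at P90 against E8.5. These are 14.3%, 7.14% and 14.3% of the list, each below the share of all genes.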

How the data were processed

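RNA of 9 captures was measured on Affymetrix mouse arrays, from 400 ng of biotin-labelled total RNA per the labels' protocols. The deposited values are intensity readings on a linear scale, 1 for each probe set on each array. The submitters' processing notes name MAS5, GCOS, RMA and GCRMA, with no role or version, so how the authors scaled the intensity values is not known. No value is given in 8048 of 405909 cells (1.98%), with the reason not stated, and 19 member probe sets had such a cell.

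Signals were used as log2(signal + 16), which understates changes of dim genes. A probe set was kept where it exceeded the 40th percentile of gene-annotated probe sets (31.5 in signal) on 3 or more of the 9 arrays and had 2 or more values per stage. The brightest kept probe set represented each gene, leaving 13180 genes. Stages were compared in 1 limma 3.58.1 fit of all arrays (R 4.3.3; two-sided moderated tests from lmFit and trended eBayes, 6 residual degrees of freedom), Benjamini-Hochberg adjusted over all genes. On simulated data for E13.5 against E8.5 with 13180 genes, 3% of 100 genes changed by 1 and 43% of 100 changed by 2 on the log2 scale were recovered, with 1 false call. No other gene was changed there, whereas 17% of all genes were called in the data. The adjustment is stricter where fewer genes change, so these shares do not give the power in the data. The arrays' number limits the precision. Members given in full were the 6 largest called rises and falls of each comparison, the brightest of each family and 10 well-known members. Other called members and Epha10, Sema3b, Sema3d, Plxnc1 and Plxnd1 were added after their values were seen. Pathway genes were named among the 3 largest called changes of their list. The members and lists were chosen with earlier results of these data known.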

Additional observations from a re-analysis of the deposited data

How the results depend on the processing

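Leaving out each array in turn gave 7 to 16 called members at E13.5 against E8.5, 5 to 11 at P90 against E13.5, 10 to 19 at P90 against E8.5 and 14 to 25 in the F-test. The shares of all genes called moved with them, over 10.2% to 21.3%, 5.06% to 13.4%, 15.5% to 29.5% and 17.9% to 33.4%. Without E13.5 replicate 2 and P90 replicate 1 together, an alternative chosen after seeing the data, the counts were 21, 18, 27 and 34 of 54 members, against 28.1%, 27.5%, 39.4% and 48.1% of all genes; all calls made with every array remained among them. Under the other settings, which were quantile normalization, 2 other pseudocounts, no or a stricter filter, 2 other variance models, fits of the compared arrays alone, 3 other choices of probe set, no empty cell and a 2-fold minimum, each count stayed within 1.5 times its main value. Every setting, arrays left out included, called 7 members at E13.5 against E8.5 (Efnb3, Epha3, Nrp1, Ntn1, Plxnb3, Sema3a, Sema6d), 4 at P90 against E13.5 (Plxna2, Sema3c, Sema6d, Slit1) and 9 at P90 against E8.5 (Efna2, Efnb3, Epha7, Ntn1, Ntn4, Plxna2, Sema3a, Sema3c, Slit1), except that Ntn1 could not be tested without empty cells, nor Plxnb3 under the stricter filter or without probe sets that can bind related transcripts. The single reversal among the named members was Sema4a at P90 against E8.5 without probe sets that can bind related transcripts, −0.04 (adjusted p = 0.936), where another probe set takes its place. Ephb6 and Efnb2 at P90 against E8.5, the latter with an adjusted p of 0.0499, were lost under several settings. The cause was not tested.

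Deviations of arrays with the same replicate number correlated at −0.377 to 0.385, so the numbers were not taken to pair captures. With the replicate number as a block, 13, 8 and 17 members were called in the 3 comparisons and 23 in the F-test, beside 16.1%, 9.1%, 23.7% and 26.2% of all genes. The calls lost were Ntn4 at E13.5 (adjusted p = 0.063), Efna5 and Efnb2 at P90 against E13.5 (0.0563 and 0.0547) and Efnb2 at P90 against E8.5 (0.0701). Dim signals limit what can be read: 13 of 67 members never passed the filter. Plxnb3 and Ephb6, which stay in the counts above, passed it only through E13.5 and P90 in turn, where they are high. Epha10 passed it only through P90 as well.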
